A study of Homo sapiens with 12 samples.

Results

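Membrane transporter genes of the solute carrier (SLC) and ATP-binding cassette (ABC) families were followed through their cassette exons, that is, exons that can be kept in or left out of the mature transcript. An event was a member when it was listed in all 12 libraries and its middle exon matched, on the same strand, an exon of a protein-coding gene in GENCODE release 29 (hg38) whose symbol begins with SLC or with ABCA, ABCB, ABCC, ABCD or ABCG, with SLC37A2 left out. This gave 67 of 4992 events, in 46 genes, 41 of them solute carriers and 5 of them ABC transporters. All RNA came from MCF10A, breast epithelial cells that do not form tumours, with stable expression of 1 of 3 constructs: siRNA-resistant wild-type TIP60 (*WT-TIP60), siRNA-resistant catalytically dead TIP60 (*KD-TIP60), or the empty vector (MSCV). TIP60, encoded by KAT5, is a lysine acetyltransferase. Each line received TIP60 siRNA or control siRNA and was harvested after 72 h, with 2 libraries numbered 1 and 2 in each of the 6 groups. All 3 lines carry a vector and keep their own KAT5 gene, and both siRNAs were delivered by transfection, so that no group is untreated MCF10A. Whether a line is 1 clone, and whether the 2 libraries of a group came from separate cultures, is not given in the sources used here, so that p-values measure the spread between these libraries, which may be technical.

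Solute carriers are membrane proteins that move sugars, amino acids, ions, vitamins, metals and nucleotide sugars along or against gradients, and ABC transporters use ATP hydrolysis to move their cargo. Breast epithelial cells depend on them for nutrient uptake, and for traffic into mitochondria, lysosomes and the Golgi. Alternative exons in such genes can shift the reading frame and so replace a transporter of many membrane spans with a short product. They can also change a segment of the protein while the frame is kept.

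The sequences that carry the main results come from GENCODE release 29 transcripts (hg38), written 5′ to 3′. The first pair shows the junctions of ABCB8, a transporter of the mitochondrial inner membrane, around its 313-nt coding exon at chr7:151033605-151033917 on the plus strand. In the form with the exon, capitals mark the first 30 bases of that exon, and in the form without it, capitals mark the first in-frame stop codon.
ABCB8 junction with the exon: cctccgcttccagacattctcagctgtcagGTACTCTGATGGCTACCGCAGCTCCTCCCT
ABCB8 junction without the exon: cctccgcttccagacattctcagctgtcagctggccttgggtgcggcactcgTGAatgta
In transcript ABCB8-202 the junction follows 95 coding bases, and 313 is not a multiple of 3. Without the exon 22 bases lie between the junction and the TGA stop, which leaves 39 codons, against 718 codons in the full form. No protein was measured.

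The second pair shows the ends of 2 short transcripts of ABCC5 (MRP5), an exporter of organic anions and cyclic nucleotides, on the minus strand of chromosome 3. Its 75-nt cassette exon lies at chr3:183985304-183985378, and capitals mark the stop codon.
ABCC5 75-nt exon, coding part and stop: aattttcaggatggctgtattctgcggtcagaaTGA
ABCC5 last exon of the short form without the 75-nt exon, coding part and stop: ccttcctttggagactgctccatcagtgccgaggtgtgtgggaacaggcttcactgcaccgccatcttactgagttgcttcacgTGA
Transcript ABCC5-203 carries the 75-nt exon and has 7 exons and 627 coding bases with the stop codon, and ABCC5-204 lacks it and has 6 exons and 678 coding bases. The full-length transcript ABCC5-202 has 30 exons and 4314 coding bases, so that both short forms end early in the gene.

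Each event has a form with the exon and a form without it. The inclusion level is the estimated share, from 0 to 1, of the event's transcripts that keep the exon, and event reads are all reads that fit either form, given per 1000000 event reads of the library (RPM). An exon was tested for inclusion when every library had at least 10 reads that fit only 1 of the forms, called isoform-specific. The 6 libraries numbered 1 held 1983221 to 2280488 event reads, of which 23439 to 27500 lay in transporter events, and the 6 numbered 2 held 1277953 to 1566296 with 15343 to 25515 in transporter events. The library number also moved many values, so it was added as a block in a second fit, which is given where it changes a call. Reads of the KAT5 form with the exon averaged 2.01 ± 1.36 RPM under TIP60 siRNA and 9.73 ± 4.71 RPM under control siRNA (SD, n = 6 each), lower in 6 of 6 pairs. This rests on 0 to 9 reads per library under TIP60 siRNA and 8 to 37 under control siRNA. The form without the exon lay at 0 to 8.379 RPM in empty-vector cells. It lay at 76.8 to 2291 RPM in *WT-TIP60 and 28.17 to 987.7 RPM in *KD-TIP60 cells, higher in libraries numbered 1. The measure therefore does not follow total KAT5 RNA in those lines. Of 13 epithelial marker genes 6 had a listed event (CDH1, CLDN7, ESRP1, ITGB4, LAMA3 and TP63), with a summed level of 2851 to 5071 RPM under TIP60 siRNA and 2758 to 4534 RPM under control siRNA. FN1 was the only 1 of 10 mesenchymal markers with an event, at 34.06 to 2469 RPM under TIP60 siRNA and 21.26 to 816 RPM under control siRNA, and none of 5 immune markers had one.

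The transporter exons were 30 to 798 nt long with a median of 137 nt, against 116 nt over the 4763 events with an annotated exon. Fully coding exons made up 50 of 67 (74.6%) against 70.9%, and lengths divisible by 3 made up 41 (61.2%) against 55.1%. Mean inclusion had a median of 0.717 against 0.709. It lay above 0.9 in 11 transporter exons (16.4%) against 21.3% of all, and below 0.1 in 11 (16.4%) against 14.0%. The highest mean inclusion was 0.989 in SLC25A3, the mitochondrial phosphate carrier, and the lowest was 0.0167 in the upstream 93-nt exon of SLC3A2. That SLC3A2 exon was not tested and had no isoform-specific read in at least 1 library. The lowest mean among tested transporter exons was 0.0225, at the 51-nt exon of ABCB8. Of the 67 events 32, in 26 genes, were tested and 35 were not, of which 12 had no isoform-specific read in at least 1 library. The tested events nearest the minimum were SLC35A1 160-nt and SLC2A8 146-nt with 10 reads in their lowest library. Just below it were SLC35E2B and SLC38A9 108-nt with 8 reads, and SLC35A1 177-nt and SLC1A3 135-nt with 7. For 17 genes there was more than 1 event, and the 177-nt exon of SLC35A1, the CMP-sialic acid carrier, entered 2 events with different neighbours, so that events of 1 gene share reads.

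Of the 17 genes with more than 1 event, 5 had exons whose mean inclusion differed by over 0.5, and 12 did not. SLC35A2, the Golgi carrier of UDP-galactose, kept its 183-nt exon at 0.93 to 0.98 and its 84-nt exon at 0.03 to 0.07 over the 12 libraries. SLC35B2, the carrier of the sulphate donor PAPS, kept a 155-nt exon at a mean of 0.981, while its 194-nt exon lay at 0.24 to 0.37. In both genes the exons did not overlap in level in any library, whatever the line or siRNA. ABCB8 likewise had a mean of 0.829 at its 313-nt exon and 0.0225 at its 51-nt exon, and SLC25A26 had 0.782 at 157 nt and 0.03 at 212 nt. The fifth was SLC7A6, an amino acid exchanger subunit, with means of 0.774 and 0.225, but neither exon had enough reads to test. Their lowest libraries had 3 and 5 isoform-specific reads. The second averaged 0.05 in libraries numbered 1 and 0.4 in those numbered 2. At the other end, both exons of SLC1A3 had means of 0.93 or 0.925, also on too few reads to test (5 and 7 in the lowest library).

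ABCB8 kept its 313-nt exon more often under TIP60 siRNA in all 3 lines. In empty-vector cells inclusion was 0.94 and 0.93 under TIP60 siRNA, against 0.85 and 0.76 under control siRNA. In *WT-TIP60 cells it was 0.93 and 0.97 under TIP60 siRNA, against 0.67 and 0.67 under control siRNA. In *KD-TIP60 cells it was 0.89 and 0.85 under TIP60 siRNA, against 0.8 and 0.69 under control siRNA. The siRNA groups did not overlap in any line, and every TIP60-siRNA library was at or above the highest control-siRNA library. Averaged over the lines, inclusion was 0.918 ± 0.042 under TIP60 siRNA and 0.74 ± 0.075 under control siRNA (SD, n = 6 each). The difference was 0.178 (SE 0.0240), with an adjusted p of 0.0315 by limma over 2695 tested exons, and 0.0137 with the replicate block. ABCB8 was 1 of 32 tested transporter exons (3.12%) past the threshold of 0.05, with 2.15% of all tested exons past it and 0.26% past it upwards. With the block it was again 1 of 32, with 4.27% of all exons. It was also the only transporter exon higher without overlap in every line, where 0.928% of all exons were (none of the 32 was lower without overlap in every line, against 4.12% of all), and the only 1 higher in 6 of 6 same-number pairs, where 2.34% of all exons were.

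The change lay in the form without the exon. The early stop codon shown above for this form was worked out from the annotated transcript named there. Which transcript or start codon the skipped reads belong to cannot be told from them, so the early stop was not tested. Reads without the exon were 1 and 2 under TIP60 siRNA and 8 and 7 under control siRNA in empty-vector cells. They were 1 and 0 under TIP60 siRNA and 12 and 11 under control siRNA in *WT-TIP60 cells, and 5 and 4 against 11 and 11 in *KD-TIP60 cells. In total 13 reads lacked the exon and 1088 held it under TIP60 siRNA, against 60 and 1001 under control siRNA, so that 98.8% and 94.3% of isoform-specific reads held the exon. The inclusion level is lower than this share because a long exon offers many more read positions than the single junction of the skipped form. On the log2(RPM + 0.5) scale the skipped form was lower under TIP60 siRNA in 6 of 6 pairs, with a mean difference of -2.07 (exact paired permutation test on both sides, p = 0.03125, below which 6 pairs cannot go). These reads enter the inclusion level for which the exon was picked, so this p-value is not separate evidence. The form with the exon differed by 0.19, was higher in 4 of 6 pairs, and gave p = 0.281 in the same exact test. Few reads carry the skipped form, and the quasi-binomial model of the reads, which called 1.97% of all tested exons and no transporter exon, gave an adjusted p of 0.0544, or 0.0355 with the block. Without the block the call held in 2 of 12 fits that each left out 1 library (adjusted p 0.0280 to 0.0907), those without control-siRNA library 1 of empty-vector or of *KD-TIP60 cells, and with the block it held in 12 of 12 (0.0195 to 0.0493).

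**Figure D1:**
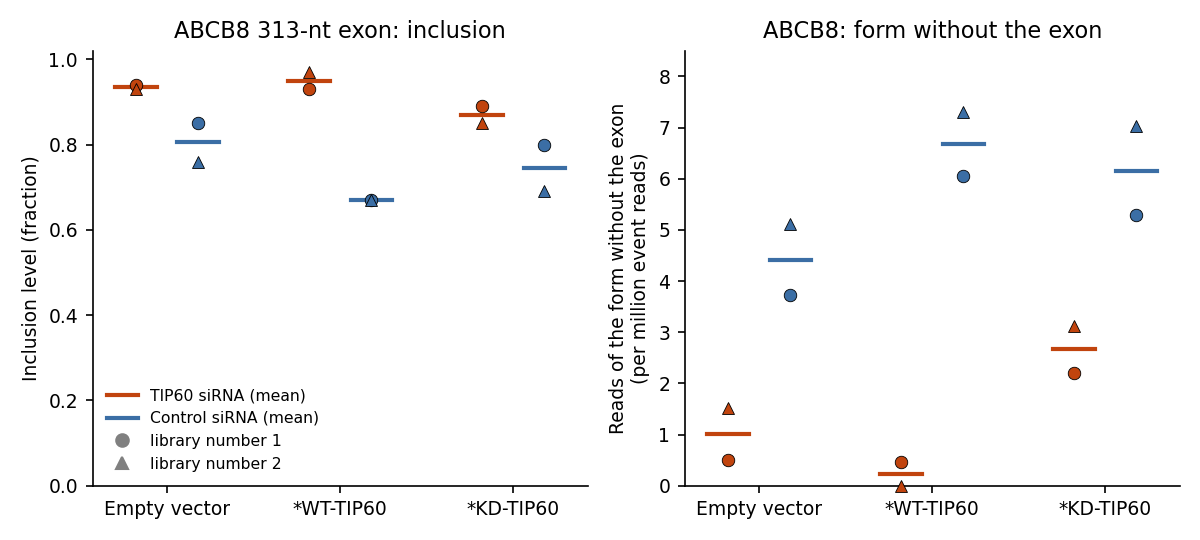
Inclusion level of the ABCB8 313-nt exon (left, a fraction from 0 to 1) and reads of the form without it (right, per 1000000 event reads) in the 12 libraries, by line and siRNA, with horizontal bars at the mean of 2 libraries. TIP60-siRNA libraries sit at 0.85 to 0.97 inclusion and control-siRNA libraries at 0.67 to 0.85, and the reads without the exon are lower under TIP60 siRNA in every line.

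Within single lines the ABCB8 difference did not pass the threshold. It was 0.130 in empty-vector cells (SE 0.0417, adjusted p 0.480), 0.280 in *WT-TIP60 cells (adjusted p 0.184) and 0.125 in *KD-TIP60 cells (adjusted p 0.502) by limma. The effect in *WT-TIP60 cells exceeded that in empty-vector cells by 0.150, and that in *KD-TIP60 cells was below that in *WT-TIP60 cells by 0.155, but both differences had an adjusted p of 1 (unadjusted 0.0382 and 0.0338). A second ABCB8 exon of 51 nt, at chr7:151031241-151031291, was rarely kept, with inclusion between 0.01 and 0.05 in every library and a siRNA difference of -0.0017 (SE 0.0112).

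No other transporter exon passed the threshold for the siRNA effect. At an unadjusted p under 0.05 there were 5 of 32 transporter exons, 1 higher and 4 lower, with 12.3% of all tested exons at that level, 2.56% higher and 9.76% lower. The median difference over the 32 was -0.0075, with 10 higher and 21 lower, against -0.0067 over all tested exons. SLC25A11, the mitochondrial oxoglutarate carrier, was among the 4 lower ones. It kept its 153-nt exon at 0.96 and 0.96 under TIP60 siRNA and 0.98 and 0.99 under control siRNA in empty-vector cells. It stood at 0.96 and 0.96 against 0.97 and 0.98 in *WT-TIP60 cells, and at 0.95 and 0.98 against 0.98 and 0.99 in *KD-TIP60 cells. Its libraries were separated in empty-vector and *WT-TIP60 cells and met at 0.98 in *KD-TIP60 cells. The difference was -0.0200 (SE 0.0060, limma adjusted p 0.195, with the block 0.0730), and 50 of 2429 isoform-specific reads lacked the exon under TIP60 siRNA against 24 of 2852 under control siRNA.

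A sugar carrier and an ion exchanger were also among the 4. SLC2A8 (GLUT8), a glucose transporter of intracellular membranes, had inclusion of its 146-nt exon of 0.74 and 0.57 under TIP60 siRNA and 0.75 and 0.92 under control siRNA in empty-vector cells. It had 0.67 and 0.77 against 0.9 and 0.9 in *WT-TIP60 cells, and 0.73 and 0.8 against 0.75 and 0.95 in *KD-TIP60 cells. It was lower in 6 of 6 pairs, although the libraries overlapped across numbers in *KD-TIP60 cells. Over all libraries 32 of 201 isoform-specific reads lacked the exon under TIP60 siRNA, against 4 of 131 under control siRNA, and the inclusion difference was -0.148 (SE 0.0526, limma adjusted p 0.282). SLC8B1, the mitochondrial sodium-calcium exchanger, differed by -0.120 at a non-coding 396-nt exon (SE 0.0355, limma adjusted p 0.191). In empty-vector cells it had 0.68 and 0.53 against 0.63 and 0.58, with equal means, so that the averaged difference came from the other lines. In *KD-TIP60 cells it had 0.62 and 0.53 against 0.79 and 0.81. For *WT-TIP60 cells the difference was -0.195 to -0.075 in fits without the block that each left out 1 library. SLC2A8 and SLC25A11 were the only 2 of 32 (6.25%) lower in 6 of 6 pairs, where 9.46% of all tested exons were.

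**Figure D2:**
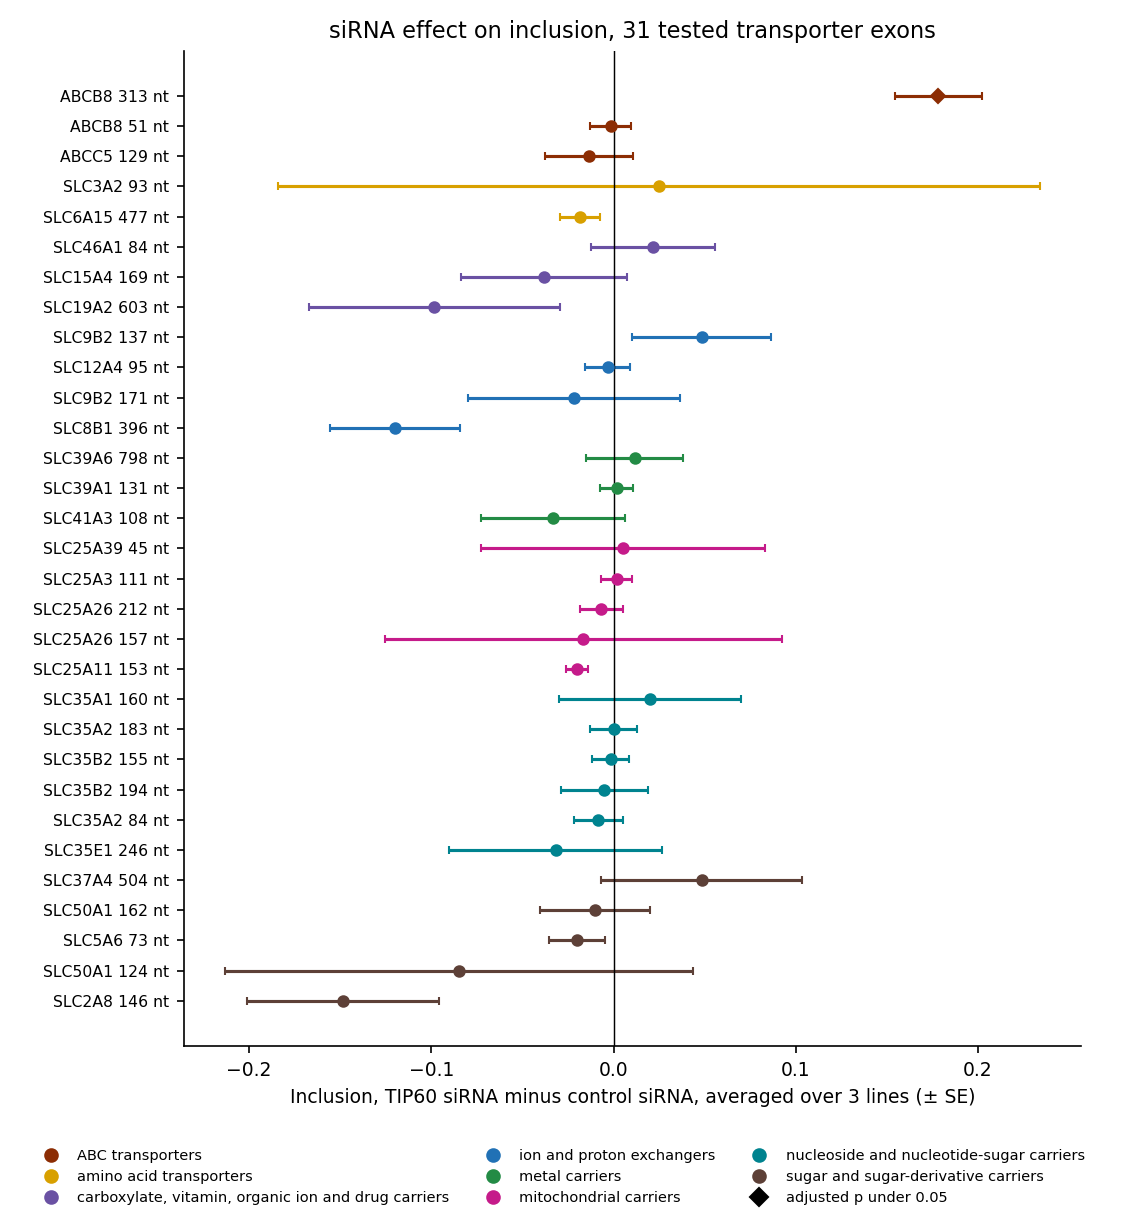
Difference in inclusion level, TIP60 siRNA minus control siRNA averaged over the 3 lines, for 31 of the 32 tested transporter exons, coloured by transporter class, with bars of 1 SE of the limma fit. ABCB8 313 nt, drawn as a diamond at 0.178, is the exon past the adjusted threshold, and SLC2A8 and SLC8B1 lie lowest at -0.148 and -0.120.

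Within single lines 0 of 32 transporter exons passed the threshold in limma with or without the block. All tested exons gave 0.0371% in empty-vector cells, 0.0% in *WT-TIP60 cells and 0.0371% in *KD-TIP60 cells without the block, and 0.148%, 0.148% and 0.371% with it. In each line 2 transporter exons had an unadjusted p under 0.05, with 6.6%, 4.3% and 6.75% of all tested exons in empty-vector, *WT-TIP60 and *KD-TIP60 cells. Beside ABCB8 these included SLC25A11 in empty-vector cells (-0.025) and SLC8B1 in *KD-TIP60 cells (-0.225). Among those next by p were SLC6A15, a neutral amino acid transporter, at -0.040 in empty-vector cells, and SLC5A6, the sodium-dependent multivitamin transporter, at -0.040 in *WT-TIP60 cells. In *KD-TIP60 cells they included both exons of SLC9B2, a sodium-proton antiporter, at 0.110 for 137 nt and 0.160 for 171 nt. None of these had an adjusted p below 0.05.

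ABCC5 gave the largest rise in event reads among transporters, at the exons that end its short forms. The event had 250.8 and 178.2 RPM under TIP60 siRNA and 58.19 and 48.21 RPM under control siRNA in empty-vector cells. It had 141.3 and 134.2 RPM against 56.47 and 46.5 RPM in *WT-TIP60 cells, and 225 and 220.7 RPM against 64.92 and 46.61 RPM in *KD-TIP60 cells. Every TIP60-siRNA library exceeded every control-siRNA library, with no overlap in any line, as for 2.16% of all events. Over the lines the level was 191.7 ± 47.9 RPM under TIP60 siRNA and 53.5 ± 7.6 RPM under control siRNA (SD, n = 6 each). The log2(RPM + 0.5) difference was 1.80 (SE 0.208), a fold of 3.49, with an adjusted p of 0.0145 by limma over 4992 events and 0.000116 with the block. This was the 1 of 67 transporter events past the threshold, with 0.741% of all events past it, 0.341% upwards and 0.401% downwards. Leaving out 1 library without the block kept the call in 1 of 12 fits (adjusted p 0.0338 to 0.0838), that without control-siRNA library 1 of empty-vector cells, and with the block in 12 of 12 (0.000126 to 0.00167). The log2 difference stayed between 1.72 and 1.89 in these fits.

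Most of those reads do not tell the 2 short forms apart. Under TIP60 siRNA 1907 reads fit both forms, 121 fit only the form with the 75-nt exon and 10 only the form without it, against 558, 21 and 2 under control siRNA. Inclusion of the 75-nt exon lay between 0.17 and 0.83 and was not tested, since 1 library had no isoform-specific read. Reads fitting both forms lie in the exons on either side. The upstream exon is also part of full-length ABCC5, and the last exon of the short forms is also covered by transcripts ABCC5-205 and ABCC5-209, so that the reads cannot be assigned to 1 transcript. The full-length transcript was followed through its 129-nt exon at chr3:183949753-183949881. That event had 24.17 and 17.44 RPM under TIP60 siRNA and 15.36 and 16.8 RPM under control siRNA in empty-vector cells, 26.06 and 17.36 against 25.72 and 21.92 RPM in *WT-TIP60 cells, and 27.63 and 13.3 against 26.93 and 17.88 RPM in *KD-TIP60 cells. Its siRNA groups overlapped in the *WT-TIP60 and *KD-TIP60 lines, and in empty-vector cells it was higher under TIP60 siRNA without overlap. Its mean log2 difference was 0.0005, and it was higher in 4 of 6 pairs (exact paired permutation test, two-sided p = 1). The log2 ratio of the short-form event to the 129-nt event was higher by 1.80 under TIP60 siRNA, in 6 of 6 pairs (p = 0.03125 in the same exact test). This ratio repeats the rise given above, so its p-value is not separate evidence. The ratio itself ran from 5.42 to 16.59 under TIP60 siRNA and from 2.12 to 3.79 under control siRNA, without overlap. Inclusion of the 129-nt exon was 0.865 ± 0.045 under TIP60 siRNA and 0.878 ± 0.048 under control siRNA (SD, n = 6 each), and the difference of -0.0133 had an unadjusted p of 0.597 by limma.

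**Figure D3:**
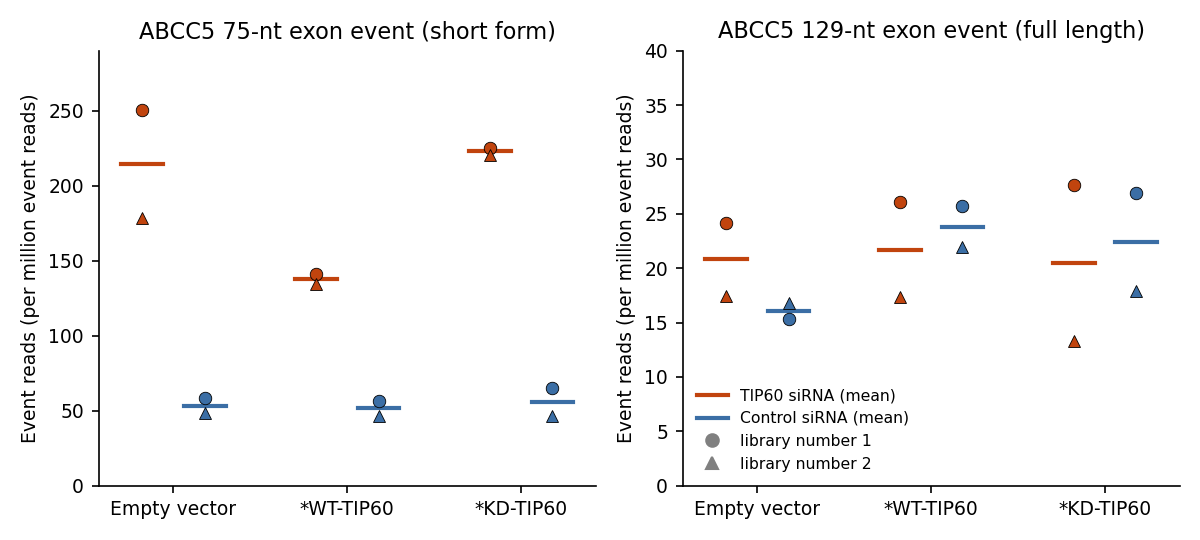
Event reads of ABCC5 per 1000000 event reads in the 12 libraries, at the 75-nt exon near the end of the short forms (left) and at the 129-nt exon of the full-length transcript (right), by line and siRNA, with bars at the mean of 2 libraries. The left panel separates TIP60 siRNA (134.2 to 250.8) from control siRNA (46.5 to 64.92). In the right panel the siRNA groups overlap in *WT-TIP60 and *KD-TIP60 cells and are apart in empty-vector cells.

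In single lines the ABCC5 rise was called with the block only. Without it 0 of 67 transporter events passed in any line, with 0.0% of all events, and at an unadjusted p under 0.05 there were 2, 1 and 3 in empty-vector, *WT-TIP60 and *KD-TIP60 cells, with 4.77%, 1.88% and 4.67% of all events. The log2 differences of ABCC5 were 1.99 in empty-vector cells (adjusted p 0.340), 1.42 in *WT-TIP60 cells (adjusted p 1) and 2.01 in *KD-TIP60 cells (adjusted p 0.420) by limma. With the block the adjusted p was 0.00569 in empty-vector cells, 0.104 in *WT-TIP60 cells and 0.00400 in *KD-TIP60 cells. The smaller effect of the *WT-TIP60 line differed from that of empty-vector cells by -0.57 and that of *KD-TIP60 cells differed from it by 0.59, with an adjusted p of 1 for both (unadjusted 0.294 and 0.277).

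Beyond ABCC5, the block changed what could be called. With the library number as a block, 11 of 67 transporter events (16.4%) passed the threshold for the average siRNA effect, 2 higher and 9 lower, with 16.8% of all events past it, 6.03% upwards and 10.7% downwards. Without it the count was 1, and the unadjusted p was under 0.05 for 7 of 67 events, with 11.0% of all events. Event reads follow the parts of a transcript around the event and are not a gene count, and fewer cells with a transcript and fewer transcripts per cell cannot be told apart here. The values below come from the block fit, and SLC22A5, SLC16A4, SLC30A5 and SLC25A3 were picked for passing it, after their values were seen.

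Classes were set by gene symbol, so that SLC5A6, the multivitamin transporter, was counted with the sugar carriers. Its log2 event reads were higher under TIP60 siRNA, by 0.249 among libraries numbered 1 and 0.145 among those numbered 2. Among carriers of organic solutes and vitamins so defined, 4 of 5 events were lower and 1 higher. Of the lower ones 3 passed with the block and none without it, with 10.7% of all events lower and past the threshold with the block. SLC22A5 (OCTN2), the plasma membrane carnitine transporter, fell most. Its event had 28.7 and 115.2 RPM under TIP60 siRNA and 91.24 and 385.7 RPM under control siRNA in empty-vector cells, 20.57 and 106.8 against 64.54 and 206.6 RPM in *WT-TIP60 cells, and 23.24 and 75.9 against 101.9 and 248.4 RPM in *KD-TIP60 cells. Library 2 was above library 1 in every group, so that the siRNA groups overlapped in empty-vector and *WT-TIP60 cells, while in *KD-TIP60 cells they were apart. Each TIP60-siRNA library lay below its same-number control. The log2 difference was -1.63 (SE 0.166, adjusted p 0.000560 with the block and 0.414 without it), and it was -1.80 among libraries numbered 1 and -1.46 among those numbered 2. SLC22A5 was also the only event beside ABCC5 that passed with the block in single lines, in empty-vector cells (-1.70, adjusted p 0.0181) and *KD-TIP60 cells (-1.91, adjusted p 0.0175). That makes 2 of 67 transporter events in empty-vector cells with 3.08% of all events, 2 in *KD-TIP60 cells with 2.84%, and 0 in *WT-TIP60 cells with 0.02%.

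SLC15A4, a lysosomal transporter of histidine and peptides, had 24.17 and 25.02 RPM under TIP60 siRNA and 64.71 and 54.06 RPM under control siRNA in empty-vector cells. It had 49.83 and 27.38 against 88.24 and 45.17 RPM in *WT-TIP60 cells, and 40.34 and 24.26 against 83.19 and 52.35 RPM in *KD-TIP60 cells. Only in *WT-TIP60 cells did the siRNA groups overlap. Its log2 difference was -1.03 (SE 0.186, adjusted p 0.00593 with the block and 0.232 without it), while inclusion of its 169-nt exon did not differ beyond its error (-0.0383, SE 0.0456). SLC16A4, of the monocarboxylate transporter family, had a log2 difference of -1.50 (adjusted p 0.0158 with the block and 0.560 without it), at 3.79 to 39.78 RPM under TIP60 siRNA and 17.24 to 85.6 RPM under control siRNA.

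The amino acid transporters had 12 of 13 events lower and 1 higher, with a median log2 difference of -0.46 against -0.10 over all events. The 13 events come from 7 genes, and a shift of the class was not tested. The 3 that passed with the block were the coding exons of SLC3A2, with 10.7% of all events lower and past the threshold. SLC3A2 is the CD98 heavy chain, which brings transporters such as SLC7A5 to the cell surface. Its downstream 93-nt event had 462.7 and 1016 RPM under TIP60 siRNA and 764.8 and 1541 RPM under control siRNA in empty-vector cells. It had 318.7 and 1131 against 443.2 and 2593 RPM in *WT-TIP60 cells, and 425.8 and 1045 against 715.5 and 1519 RPM in *KD-TIP60 cells. Each TIP60-siRNA library lay below its same-number control, and all groups overlapped across numbers. The log2 difference was -0.71 (adjusted p 0.0306 with the block and 0.790 without it), lower in 6 of 6 pairs, with -0.65 among libraries numbered 1 and -0.78 among those numbered 2. The upstream 93-nt event gave -0.87 (adjusted p 0.0146) and the 96-nt event -0.68 (adjusted p 0.0452) in the block fit. These events share neighbouring exons and reads, so they are not separate evidence. SLC1A3, a glutamate transporter, was lower in 6 of 6 pairs at both of its exons (-0.46 and -0.90) without passing in either fit.

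Among 5 events of metal carriers 4 were lower, and 2 of them passed with the block and none without it, against 10.7% of all events lower with the block. SLC30A5, a zinc transporter of the secretory pathway, had a log2 difference of -1.04 (adjusted p 0.0235 with the block and 0.790 without it), with 13.59 to 74.12 RPM under TIP60 siRNA and 17.69 to 149.8 RPM under control siRNA. SLC39A1 (ZIP1), a zinc importer of the plasma membrane, had 1773 and 2221 RPM under TIP60 siRNA and 2697 and 2943 RPM under control siRNA in empty-vector cells. It had 2719 and 2956 against 3061 and 2684 RPM in *WT-TIP60 cells, and 1698 and 2024 against 2706 and 3177 RPM in *KD-TIP60 cells. The groups were apart in empty-vector and *KD-TIP60 cells and overlapped in *WT-TIP60 cells. Its log2 difference was -0.39 (SE 0.0884, adjusted p 0.0154 with the block and 0.295 without it, and 0.152 with the block and median-ratio scaling), and the exon itself was nearly always kept, at 0.96 to 1. The exon also matches AL358472.7, so that reads of the 2 genes cannot be told apart.

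Of 9 events in the sugar carrier class, which by symbol also holds the multivitamin transporter SLC5A6, 1 was past the threshold with the block. This was SLC37A4 at its 504-nt non-coding exon. Of all events 16.8% were past it in that fit. SLC37A4 carries glucose-6-phosphate into the endoplasmic reticulum. It had 21.15 and 24.26 RPM under TIP60 siRNA and 34.91 and 37.26 RPM under control siRNA in empty-vector cells, 35.2 and 24.71 against 42.36 and 46.5 RPM in *WT-TIP60 cells, and 18.86 and 14.09 against 29.81 and 30.65 RPM in *KD-TIP60 cells. It was the only transporter event lower without overlap in every line, where 3.69% of all events were, and its log2 difference was -0.70 (adjusted p 0.0303 with the block and 0.350 without it). SLC2A8 at the 146-nt exon described above gave a higher value (0.71) in 6 of 6 pairs but an adjusted p of 0.0721 with the block.

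All events gave 16.8% past the threshold with the block, 6.03% upwards and 10.7% downwards. Among 7 events of mitochondrial carriers, SLC25A3, the phosphate carrier, rose and was the 1 past the threshold with the block. It had 4170 and 1940 RPM under TIP60 siRNA and 2923 and 1438 RPM under control siRNA in empty-vector cells, 3471 and 1916 against 2650 and 1623 RPM in *WT-TIP60 cells, and 3512 and 2062 against 2884 and 1580 RPM in *KD-TIP60 cells. Each TIP60-siRNA library was above its same-number control, and library 1 exceeded library 2 in every group. The log2 difference was 0.37 (SE 0.0837, adjusted p 0.0153 with the block and 0.838 without it). None of the 9 events of ion and proton exchangers, the 11 of nucleoside and nucleotide-sugar carriers or the 1 of the fatty acid carrier SLC27A1 passed in either fit.

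Most of these calls were lost when 1 library was left out. In 12 block fits that each left out 1 library, SLC22A5 and SLC15A4 passed in 12, SLC16A4 in 9, SLC25A3, SLC39A1 and the upstream SLC3A2 event in 8, SLC30A5 and the downstream 93-nt SLC3A2 event in 5, SLC37A4 in 4 and the 96-nt SLC3A2 event in 3. The highest adjusted p in these fits was 0.0680 for SLC39A1, 0.0654 for SLC16A4, 0.0643 for SLC25A3, 0.0900 for SLC30A5 and 0.113 for SLC37A4. For SLC3A2 it was 0.0577, 0.108 and 0.146 at the upstream 93-nt, downstream 93-nt and 96-nt events. Without control-siRNA library 1 of *KD-TIP60 cells all 8 of these events were above the threshold, and without control-siRNA library 2 of that line 7 were. In *WT-TIP60 cells leaving out TIP60-siRNA library 1 or 2 ended 4 or 7 calls, and leaving out control-siRNA library 1 or 2 ended 4 or 6. Leaving out TIP60-siRNA library 2 of *KD-TIP60 cells ended 3, and in empty-vector cells the TIP60-siRNA libraries ended 1 each and the control-siRNA libraries 2 and 3. TIP60-siRNA library 1 of *KD-TIP60 cells ended none.

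Over all 67 transporter events the median log2 difference was -0.25, with 17 higher and 50 lower, against -0.10 over all 4992 events. Scaling by the median ratio in place of the library total moved the median of all events to 0.01 and that of the transporter events to -0.15, with 22 higher and 45 lower. With that scaling and the block 9 transporter events passed, with 15.4% of all events. SLC39A1, a single 93-nt event of SLC3A2 and its 96-nt event were then above the threshold (adjusted p 0.152, 0.0804 and 0.107). SLC35E2A, a member of the nucleotide-sugar carrier family, then passed at -0.88 (adjusted p 0.0493). Lower in 6 of 6 pairs were 18 transporter events (26.9%) with 18.7% of all events, and higher in 6 of 6 were 4 (5.97%) with 12.1%, namely ABCC5 75-nt, SLC25A3, SLC2A8 146-nt and SLC26A1.

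**Figure D4:**
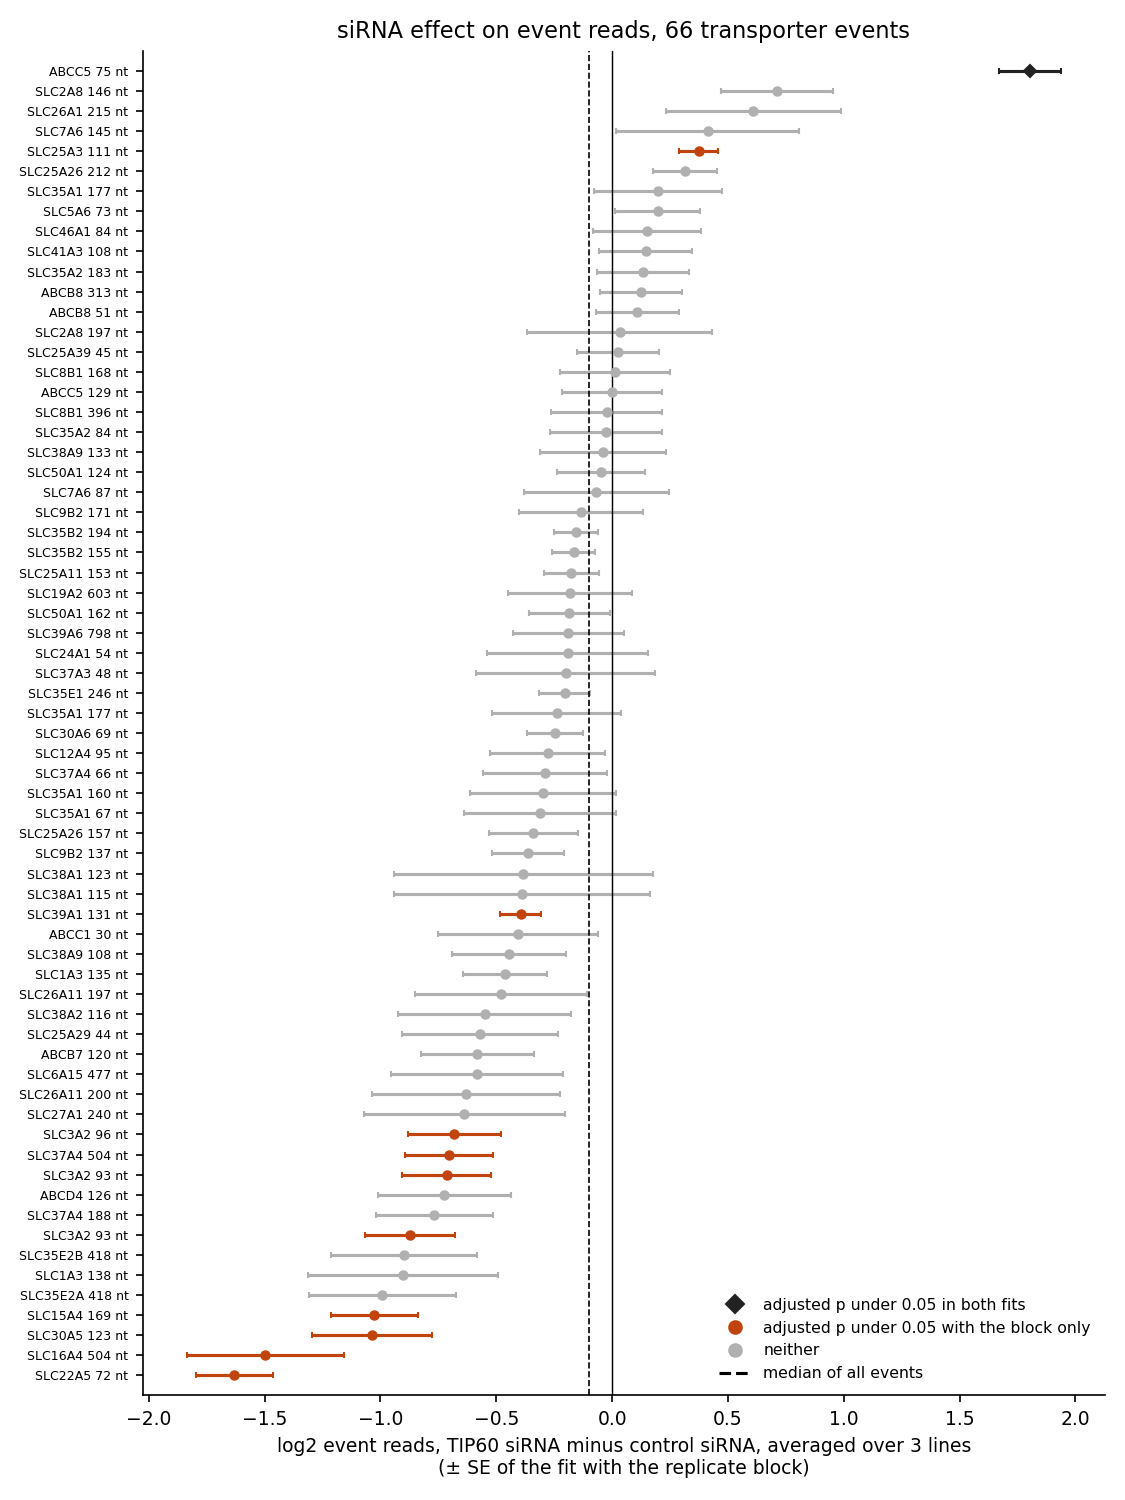
Log2 difference in event reads, TIP60 siRNA minus control siRNA averaged over the 3 lines, for 66 of the 67 transporter events in order of size, with bars of 1 SE of the fit with the replicate block. ABCC5 75 nt stands at 1.80 and SLC22A5 at -1.63, and 49 of the 66 events shown lie below 0.

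The library number separated some transporter exons widely. Among the 32 tested exons 7 (21.9%) had means over 0.1 apart between libraries numbered 1 and 2, with 22.7% of all tested exons. At the downstream 93-nt exon of SLC3A2 inclusion was 0 or 0.01 in every library numbered 1, with 0 reads that held the exon. In the libraries numbered 2 it was 0.46 to 0.67, with 165 to 453 such reads. The groups of libraries did not overlap, in any line or under either siRNA, although the event was well covered in both. SLC25A26, the mitochondrial carrier of S-adenosylmethionine, kept its 157-nt exon at 0.47 to 0.76 in libraries numbered 1 and 0.88 to 0.95 in those numbered 2, on at least 42 isoform-specific reads in each. SLC50A1, a sugar transporter, stood at 0.28 to 0.53 and 0.58 to 0.8 at its 124-nt exon in the same order.

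For SLC25A39, a mitochondrial carrier linked to glutathione, the estimate was 0.95 to 0.98 in libraries numbered 1 and 0.71 to 0.81 in those numbered 2. Yet those numbered 2 had 16 to 25 reads with the 45-nt exon and 0 without it, against 120 to 156 reads with it in those numbered 1. Here the share of reads with the exon did not fall, and the lower level came with fewer reads. The other exons past 0.1 were SLC37A4 504-nt, SLC19A2 603-nt and SLC9B2 171-nt. The largest gap among events without a test was in SLC38A1, a glutamine transporter, whose non-coding 115-nt exon averaged 0.0633 in libraries numbered 1 and 0.958 in those numbered 2. SLC25A39, SLC19A2 and SLC38A1 were singled out here after their values were seen. Libraries numbered 1 and 2 also differed in the share of reads that fit neither form, 50.07% to 53.21% and 64.47% to 65.7%, and the part of this in the results was not tested.

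**Figure D5:**
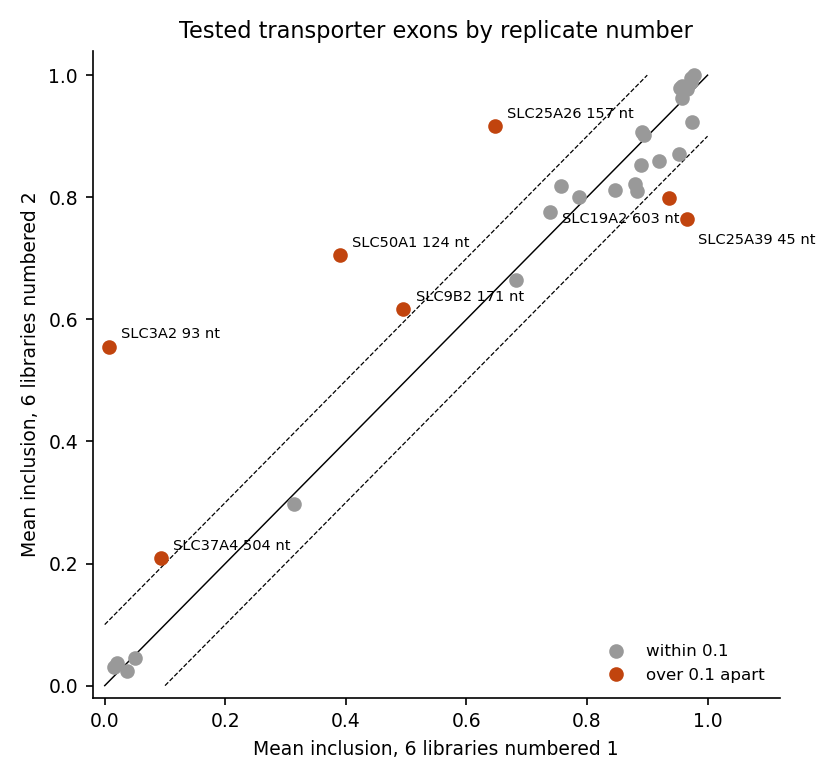
Mean inclusion level of each tested transporter exon in the 6 libraries numbered 1 (horizontal axis) and the 6 numbered 2 (vertical axis), with the line of equality and dashed lines 0.1 to either side. The 7 named exons lie outside the dashed lines, with SLC3A2 93 nt farthest out.

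Averaged over both siRNAs, the constructs moved no transporter exon past the threshold, and constructs were not compared under control siRNA alone. For inclusion, 0 of 32 passed for *WT-TIP60 against empty vector, *KD-TIP60 against empty vector and *KD-TIP60 against *WT-TIP60, with 0.0% of all tested exons, in limma with or without the block. At an unadjusted p under 0.05 there were 2, 0 and 1 transporter exons, with 2.19%, 1.78% and 2.15% of all tested exons. SLC8B1 396-nt (0.1225) was among the 2 in *WT-TIP60 against empty vector, where SLC15A4 gave -0.1275 (unadjusted p 0.0563). In *KD-TIP60 against empty vector the 3 of smallest p were ABCB8 313-nt (-0.0625, unadjusted p 0.0714), SLC8B1 396-nt (0.0825) and SLC15A4 (-0.105). SLC41A3, of a magnesium transporter family, gave -0.060 in *KD-TIP60 against *WT-TIP60. The differences between siRNA effects gave 1 transporter exon each at that level, with 1.71%, 1.34% and 1.19% of all tested exons. These were ABCB8, as given above, in both differences with *WT-TIP60 cells, and SLC8B1 396-nt in *KD-TIP60 minus empty-vector cells (-0.225), and their adjusted p was 1.

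Event reads, again averaged over both siRNAs, gave 0 of 67 past the threshold for constructs in limma with or without the block. At most 0.02% of all events passed. At an unadjusted p under 0.05 there were 0, 0 and 2, with 0.962%, 0.361% and 1.18% of all events. The smallest p was for SLC1A3 in *KD-TIP60 against *WT-TIP60. At its 135-nt exon the *KD-TIP60 libraries had 105.2 and 67.3 RPM under TIP60 siRNA and 167.3 and 161.5 RPM under control siRNA, and the *WT-TIP60 libraries had 185.6 and 279.1 RPM under TIP60 siRNA and 196.1 and 314.2 RPM under control siRNA. All 4 *KD-TIP60 libraries were below all 4 *WT-TIP60 libraries. The log2 difference was -1.01 (SE 0.271, unadjusted p 0.00493, adjusted p 1 by limma and 0.212 with the block). At its 138-nt exon it was -1.58 (unadjusted p 0.0260). In *WT-TIP60 against empty vector the smallest p was 0.0558 for SLC37A4 66-nt (1.05), followed by SLC2A8 146-nt (-0.66) and SLC26A1, a sulphate transporter (0.91). For the differences between siRNA effects 0 of 67 had an unadjusted p under 0.05, with 0.22%, 0.1% and 0.24% of all events.

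Other transport genes were set beside these families. Pumps, flippases, aquaporins, channels and facilitator superfamily members gave 34 events in 23 genes, of which 22 in 18 genes were tested for inclusion. None of the 22 had an unadjusted p under 0.05 for the average siRNA effect, against 5 of 32 transporter exons and 12.3% of all tested exons, and their median difference was -0.0108. For event reads 0 of 34 passed without the block and 8 with it, 3 of them higher, against 11 of 67 transporter events (16.4%) and 16.8% of all events with the block. Their median log2 difference was -0.16, against -0.10 over all events. The difference between these genes and the transporters was not tested.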

How the data were processed

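The deposited tables, 1 per library, hold a fraction that the file headers name as the posterior mean of MISO, which estimates isoform shares from reads. They also give reads per class (with the exon only, without it only, both, neither). Reads were aligned with STAR to hg38, per the submitters' processing notes. Events were matched by exon coordinates and strand to GENCODE release 29.

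limma 3.58.1 (R 4.3.3) was fitted to inclusion with 1 factor of 6 groups over 12 libraries, a variance trend on mean log2 isoform-specific reads, the robust option, two-sided tests and Benjamini-Hochberg adjustment over 2695 exons, and to log2(RPM + 0.5) over 4992 events. Few reads widen the MISO estimate, and this scale understates changes of low events. Scripts were tested on simulated data.

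Library numbers were taken to pair the samples from the data: deviations from the group means correlated between same-numbered libraries in all 15 pairs of groups (r 0.706 to 0.779 for inclusion, 0.583 to 0.896 for log2 event reads).

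Named were ABCB8 and ABCC5 events, the smallest p-values of each comparison, exons next to the read minimum or at the extremes of inclusion, and genes with more than 1 event. The values of 1 gene and some sequences are not reported here. Members, lists and comparisons were chosen with earlier results of these data known. Alternatives covered read minimums, scales, models, scaling, the replicate block and each library left out.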

Additional observations from a re-analysis of the deposited data

How the results depend on the processing

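Of 68 single results named by the rule, 55 kept direction and side of the threshold in every alternative. The replicate block raised the number of transporter events past the threshold for event reads from 1 to 11 for the average siRNA effect, from 0 to 2 in empty-vector cells and from 0 to 2 in *KD-TIP60 cells, and with median-ratio scaling and the block, an alternative chosen after seeing the data, these were 9, 2 and 2. In the quasi-binomial model the block moved ABCB8 past the threshold (adjusted p 0.0544 without and 0.0355 with it), and in fits without 1 library it raised the number that call ABCB8 from 2 to 12 of 12, ABCC5 from 1 to 12, and the SLC1A3 138-nt event in *KD-TIP60 against *WT-TIP60 from 0 to 1. Over all libraries in limma the block changed no other call. The quasi-binomial model gave 0 transporter exons for the average inclusion effect, in place of 1. Leaving out each library in turn, without the block and (chosen after seeing the data) with it, gave 0 to 2 exons for average inclusion, 0 to 17 events for average event reads, 0 to 3 in empty-vector cells, 0 to 4 in *KD-TIP60 cells and 0 to 1 for *KD-TIP60 against *WT-TIP60. With the block the average event-read count was 3, 5, 7, 8, 10, 12, 14 or 17, by the library left out. Direction turned in 2 results, neither past the threshold in any fit: SLC9B2 137-nt inclusion in *KD-TIP60 cells (0.110) was -0.013 without control-siRNA library 1 of that line, with the block, and the SLC2A8 197-nt difference of siRNA effects between *KD-TIP60 and empty-vector cells (log2 -1.15) was 0.046 without TIP60-siRNA library 1 of empty-vector cells, with the block. Apart from fewer libraries the cause was not tested. A minimum of 20 isoform-specific reads left 23 transporter exons.

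With 2 libraries a group, single-line effects of the size seen at ABCB8 were not called. Depth limits the rare forms: skipped ABCB8 rests on 73 reads, and 35 of 67 events had too few isoform-specific reads to test.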
